A study of Arabidopsis thaliana with 6 samples.

Results

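STZ (AT1G27730), also known as ZAT10, and AT2G28200 encode C2H2 zinc finger proteins of the C1-2i group. The rule named 10 genes of this group, and these were the 2 among them whose probe set could be assigned to a single gene. The array had 13356 such genes. The other 8, which were AZF1, AZF2, AZF3, AT5G59820, AT5G04340, AT3G46080, AT3G46090 and AT2G37430, were not analysed here. The rule names members by gene family and uses no measured values, but the members were chosen with earlier results of these data known. The paper had already reported STZ, from these arrays and by real-time PCR, as lower in the transgenic line. The fall of STZ described here is therefore not an independent finding.

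C1-2i proteins of plants carry a pair of separated zinc fingers, each with a conserved QALGGH stretch that contacts DNA, and many also carry an EAR motif through which co-repressors are recruited. STZ acts as a transcriptional repressor, and in Arabidopsis its transcript is known to accumulate within a short time after salt, cold, dehydration, ABA or wounding. Altered STZ levels are known to affect tolerance to salt, osmotic and oxidative stress.

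Transcript levels were measured in whole 10-day-old seedlings of the Columbia ecotype, grown under 14 h light and 10 h dark without stress. The paper names pots or MS plates for its plants and does not say which was used for these seedlings. The 3 arrays of 35S::OsHOX24 seedlings came from a single transgenic line, HZIP1-2.3, in which the rice HD-ZIP I gene OsHOX24 is driven by the CaMV 35S promoter in most cells. The 3 arrays of wild-type (WT) seedlings served as control. The paper describes the 3 arrays of each genotype as independent biological replicates, and the level of the rice transgene was not analysed here. Each value is the MAS5 signal of a probe set on the log2 scale. In such whole seedlings, a lower transcript level per cell cannot be told apart from fewer cells that express the gene.

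Array medians were 7.27 to 7.31 (log2) in 35S::OsHOX24 and 7.24 to 7.42 in WT. The green shoot markers LHCB4.1 and RCA had mean signals of 14.28 and 14.54 (log2) in 35S::OsHOX24 and of 14.34 and 14.46 in WT. The root hair gene EXPA7 averaged 4.94 ± 0.44 (log2, SD, n = 3) in 35S::OsHOX24 and 3.87 ± 1.40 in WT, below the array median in both genotypes. The other listed shoot and root markers and the seed markers were not analysed here. The signal of the GAPDH 3' probe set exceeded that of the 5' probe set, by more where RNA is less intact or less completely transcribed. This GAPDH difference was 3.29, 3.63 and 2.39 (log2) in replicates 1, 2 and 3 of 35S::OsHOX24, against 3.25, 1.63 and 4.80 in those of WT.

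STZ was lower in 35S::OsHOX24 than in WT, whereas AT2G28200 did not differ beyond the spread between arrays. The signal of STZ was 7.85, 8.90 and 7.82 (log2) in replicates 1, 2 and 3 of 35S::OsHOX24, against 10.26, 9.44 and 10.26 in those of WT. All 3 transgenic arrays thus lay below all 3 WT arrays, a pattern shown by 4.13% of the 22746 probe sets tested. The array nearest to the other genotype was replicate 2 on either side, with the highest transgenic value and the lowest WT value. On the linear scale, the signals were 230, 478 and 226 in 35S::OsHOX24 and 1223, 693 and 1225 in WT. Within each array, STZ stood at the 57.3rd to 71.6th percentile of all probe sets in 35S::OsHOX24 and at the 78.9th to 87.7th percentile in WT.

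The log2 difference of STZ between 35S::OsHOX24 and WT was -1.79 (standard error 0.41), which corresponds to a 3.47-fold lower signal with a 95% interval from 1.72-fold to 6.99-fold lower. STZ passed the thresholds of the study, which are a change of at least 2-fold with an unadjusted p of at most 0.05. The unadjusted p of STZ with limma was 0.00481. At these thresholds, 1.61% of all probe sets were lower and 0.914% were higher in 35S::OsHOX24. By size of the fall, STZ ranked 4th of the 6032 genes whose mean signal was above the median of all probe sets, 7.29 (log2). Over all probe sets, which include those of low signal, 1.40% had a larger fall than STZ. STZ did not pass after adjustment over all probe sets (adjusted p = 1 with limma). None of the 22746 probe sets (0%) had an adjusted p under 0.05 with limma or with the methods' t-test, and 785 and 798 had an unadjusted p under 0.05. The exact 2-sided permutation test of the 6 values gave p = 0.1, and this design cannot reach a lower value. The call of STZ was lost when replicate 1 of both genotypes was left out (log2 difference -1.49, unadjusted p = 0.0583 with limma), while the direction stayed the same.

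**Figure D1:**
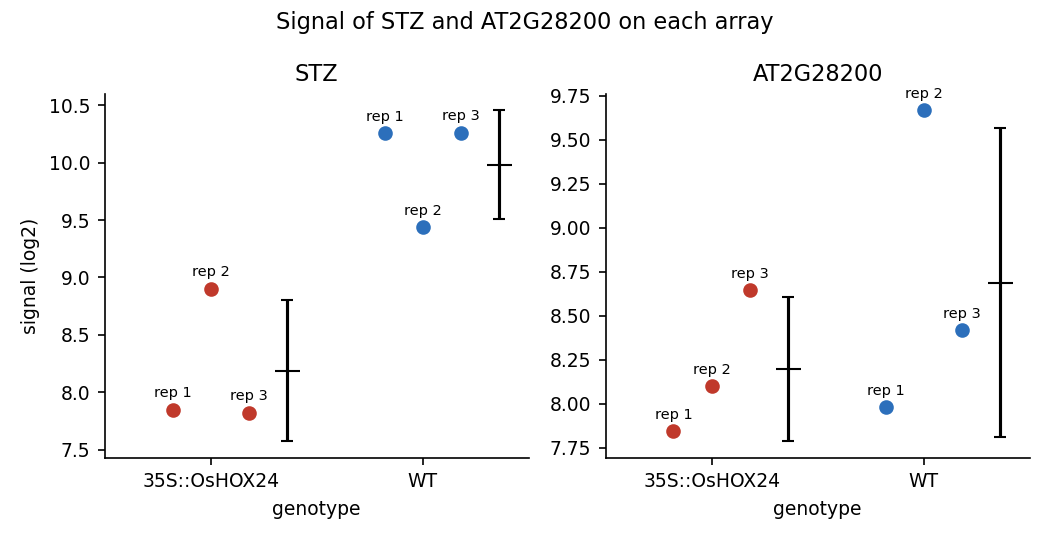
Signal (log2) of STZ and AT2G28200 on each of the 3 arrays of 35S::OsHOX24 (red) and of WT (blue), with the mean and SD of each genotype in black; each gene has its own vertical axis, since levels of different probe sets are not comparable. The STZ values of 35S::OsHOX24 lie between 7.82 and 8.90, all below the WT values of 9.44 to 10.26, while those of AT2G28200 overlap.

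For AT2G28200, the signal was 7.84, 8.10 and 8.64 (log2) in replicates 1, 2 and 3 of 35S::OsHOX24, against 7.98, 9.67 and 8.42 in those of WT. The values of the genotypes overlapped, and WT replicate 2 stood above the other 5 arrays. The mean was 8.20 ± 0.41 (log2, SD, n = 3) in 35S::OsHOX24 and 8.69 ± 0.88 in WT. The log2 difference was -0.49 (standard error 0.49), with a 95% interval from 3.25-fold lower to 1.64-fold higher, and AT2G28200 did not pass the thresholds (unadjusted p = 0.357 and adjusted p = 1 with limma). The interval includes falls of more than 2-fold. Without WT replicate 2 the log2 difference was -0.0028. WT replicate 2 was also the array with the lowest GAPDH difference, 1.63 (log2). Over the 6 arrays, Pearson's r with the GAPDH difference was -0.65 for AT2G28200 and 0.37 for STZ. These r also take in the differences between genotypes. Within each genotype, the array with the lowest GAPDH difference had the lowest STZ and the highest AT2G28200 signal. Those arrays were 35S::OsHOX24 replicate 3 and WT replicate 2. With the GAPDH difference as a covariate, chosen after seeing the data, the log2 difference was -0.55 for AT2G28200 and -1.75 for STZ. Whether RNA integrity had a part in these values was not tested.

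The responses of both genes were compared by subtracting the log2 signal of AT2G28200 from that of STZ in each array. The difference was 0.0038, 0.80 and -0.83 in replicates 1, 2 and 3 of 35S::OsHOX24, against 2.27, -0.23 and 1.84 in those of WT. The mean of this difference was -0.01 in 35S::OsHOX24 and 1.29 in WT, a change of -1.30 (log2). The genotypes overlapped because of WT replicate 2, in which STZ was at its lowest and AT2G28200 at its highest WT value. The change was -2.07 when WT replicate 2 was left out and -0.81 when WT replicate 1 was. An exact 2-sided permutation test gave p = 0.3, in a design whose smallest p is 0.1, so that it could not have passed 0.05 and leaves unsettled whether the genes differ in their response. Over the 6 arrays, Pearson's r between them was 0.11, and after subtraction of each genotype's mean it was -0.61; the arrays are the same for both genes, and r is given as a description.

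**Figure D2:**
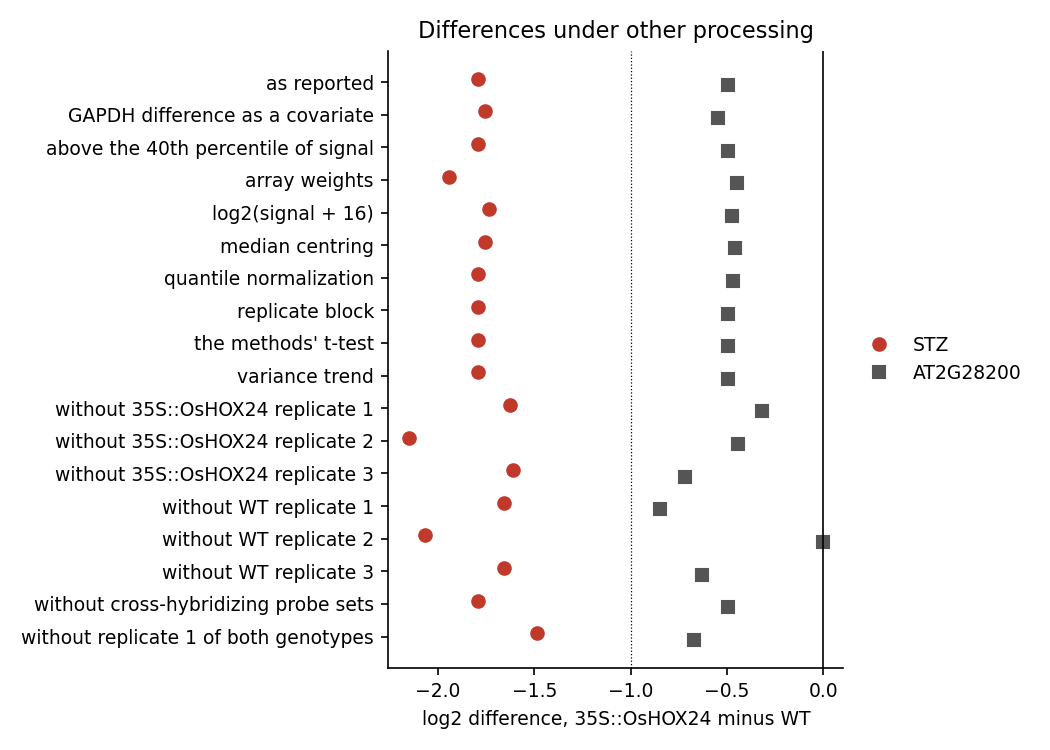
Log2 difference between 35S::OsHOX24 and WT (horizontal axis) for STZ (circles) and AT2G28200 (squares) as reported and under each alternative (rows); the dotted line marks a 2-fold lower signal. STZ lies between -2.15 and -1.49 throughout, and AT2G28200 between -0.85 and -0.0028.

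Other genes with C2H2 zinc fingers were examined from a list of 32, which includes regulators of floral organ and trichome development, and of which 11 had a probe set of their own. None of the 11 passed the thresholds in either direction, and none had separate values in the 2 genotypes. Over all 22746 probe sets, 1.61% were lower and 0.914% higher at the thresholds. All transgenic arrays lay below all WT arrays in 940 probe sets and above them in 692. With shares this low, the absence of calls among 11 genes is not a result about these genes. Their log2 differences ranged from -1.36 to 0.52, with 8 of 11 below 0, against 53.6% of all probe sets. Their median was -0.38, against -0.03 over all probe sets, and moved to -0.17 without 35S::OsHOX24 replicate 1, to -0.25 without WT replicate 1, to -0.18 without WT replicate 3, to -0.17 with log2(signal + 16) and to -0.10 without replicate 1 of both genotypes. The 4 genes with the lowest p had signals below the array median. AT2G45120 had 4.50, 2.03 and 5.13 (log2) in 35S::OsHOX24, against 4.74, 5.28 and 5.72 in WT. The largest of the 11 differences, -1.36, thus rested mainly on the low value of 35S::OsHOX24 replicate 2, without which it was -0.43. AT3G60580 had 4.09, 5.78 and 5.08 in 35S::OsHOX24, against 5.75, 5.34 and 5.73 in WT. Its log2 difference of -0.62 was -0.17 without 35S::OsHOX24 replicate 1 and -1.02, past the thresholds, without 35S::OsHOX24 replicate 2. RBE, a regulator of petal development, had 5.02, 2.51 and 1.46 in 35S::OsHOX24, against 3.40, 4.12 and 4.55 in WT, and its replicate 1 of 35S::OsHOX24 was above all other arrays. The log2 difference of RBE was -1.03, or -2.04 and past the thresholds without that array and -0.26 without 35S::OsHOX24 replicate 3. AT3G53600 had 0.11, 0.24 and 0 in 35S::OsHOX24, against 2.996, 0.14 and 0.23 in WT, so that its log2 difference of -1.005 rested on WT replicate 1, without which it was -0.07.

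Protein kinases and transcription factors that act upstream of STZ and its relatives, such as MPK3 and CAMTA3, were listed as 11 genes. Co-repressors of EAR motif proteins, such as TPL and SAP18, were listed as 8 genes. None of these was analysed here. Of 14 genes tied to STZ or its relatives in mutants or overexpressors, 2 had a probe set of their own, and neither passed the thresholds. COR47, a dehydrin gene, had 12.02, 11.58 and 12.36 (log2) in 35S::OsHOX24, against 11.87, 12.42 and 11.81 in WT, a log2 difference of -0.05 (standard error 0.31). COR15A, which encodes a cryoprotective chloroplast protein, had 9.67, 5.66 and 6.86 in 35S::OsHOX24, against 10.84, 5.20 and 5.95 in WT. The COR15A values separated replicate 1 of either genotype from the other arrays, and its log2 difference of 0.07 (standard error 1.74) has no direction here. With a block for the replicate number, the difference was the same and its standard error was 0.51.

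STZ belongs to the genes that rise rapidly under many stresses, and 40 other genes of this kind were listed, of which 7 had a probe set of their own. CML37 was the only gene of the 7 past the thresholds and the only one with separate values. Of all probe sets, 1.61% were lower and 0.914% higher at the thresholds, and 4.13% had all transgenic arrays below all WT arrays. As 1 of 7 genes, CML37 is described as a single gene and not as a result about the list. CML37 encodes a calmodulin-like protein and had 3.85, 1.29 and 1.60 (log2) in 35S::OsHOX24, against 5.18, 4.66 and 5.57 in WT. These values lie below the array median, and the log2 difference was -2.89 (standard error 0.72, adjusted p = 1 with limma), or -1.23 with log2(signal + 16). AT1G76640, for another calmodulin-like protein, had 1.35, 0.55 and 1.91 in 35S::OsHOX24, against 2.28, 4.04 and 1.28 in WT. Its log2 difference of -1.26 was -0.51 without WT replicate 2 and -1.89, past the thresholds, without WT replicate 3. With the GAPDH difference as a covariate, chosen after seeing the data, it was -1.37, also past the thresholds.

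The transcription factor gene WRKY53, which acts in leaf senescence, had 7.34, 5.88 and 5.72 (log2) in 35S::OsHOX24, against 8.10, 6.50 and 6.61 in WT, a log2 difference of -0.76, which was -0.25 without WT replicate 1, -0.46 without 35S::OsHOX24 replicate 3 and -1.27 without 35S::OsHOX24 replicate 1. In both genotypes the highest WRKY53 value was that of replicate 1, and the values of the genotypes overlapped. With the replicate block the standard error of this difference was 0.28, against 0.62 as reported, and WRKY53 did not pass the thresholds in either fit. WRKY6, a related gene active in senescence and phosphate starvation, had 6.11, 5.84 and 7.17 in 35S::OsHOX24, against 7.47, 7.90 and 5.85 in WT, a log2 difference of -0.70. It was -0.29 without WT replicate 2, -0.43 without 35S::OsHOX24 replicate 2, -1.10 without 35S::OsHOX24 replicate 3 and -1.31, past the thresholds, without WT replicate 3. WT replicate 3 thus had a high STZ value and the second lowest WRKY6 value of all arrays. The remaining members CML38, PUB23 and PUB22 had log2 differences of -0.54, 0.09 and -0.20.

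In total, 6 of the 7 rapidly induced genes had log2 differences below 0, against 53.6% of all probe sets, and 6 of the 7 did not pass the thresholds. Their median was -0.70, against -0.03 over all probe sets, and moved to -0.26 without WT replicate 1 and to -0.37 without replicate 1 of both genotypes. The sum of their linear signals was 678, 448 and 678 in replicates 1, 2 and 3 of 35S::OsHOX24, against 1168, 780 and 785 in those of WT. The separation of the sums rested on CML38: without it, chosen after seeing the data, they were 479, 256 and 510 in 35S::OsHOX24, against 773, 670 and 332 in WT, and the genotypes overlapped. The mean log2 signals of the 7 genes were 5.70, 4.76 and 5.47 in 35S::OsHOX24, against 6.56, 6.33 and 5.72 in WT, so that the nearest arrays of the genotypes were almost equal. The order of arrays differed from that of STZ, as 35S::OsHOX24 replicate 2 had the highest transgenic STZ signal and the lowest sum. Whether the seedlings differed in a general stress state when they were harvested was not tested.

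**Figure D3:**
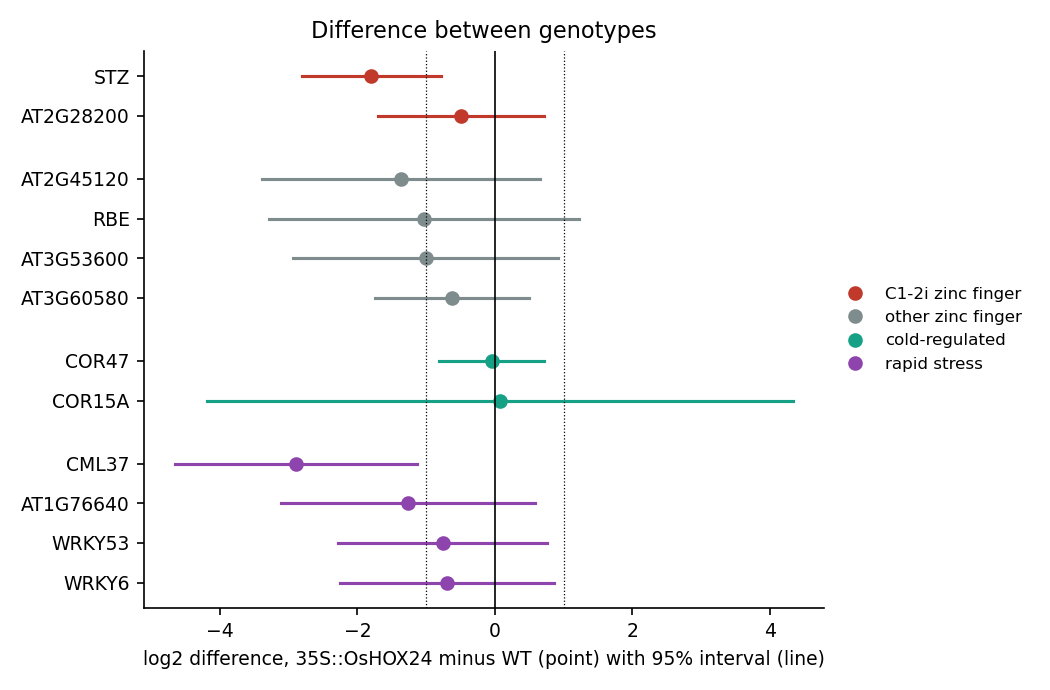
Log2 difference between 35S::OsHOX24 and WT (points) with the 95% interval from limma (lines) for STZ and AT2G28200 and for the named genes of the lists of other zinc finger, cold-regulated and rapidly induced stress genes; dotted lines mark 2-fold. STZ and CML37 are the genes whose intervals lie wholly below 0.

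Genes with an array pattern most like that of STZ were looked up among 6031 other genes with a mean signal above the median, by Pearson's r over the 6 arrays. The 8 nearest genes had r of 0.961 to 0.995. The nearest was AT2G38000, with 8.63, 8.75 and 8.61 (log2) in 35S::OsHOX24 and 8.96, 8.82 and 8.93 in WT. It was followed by AT5G24710, AT1G72390 (PHL), AT5G11760, AT2G22660, TSC10B, AT1G78810 and AT1G50380. TSC10B encodes a reductase of sphingolipid synthesis. Like STZ, each of the 8 genes was highest among the transgenic arrays in replicate 2, as choice by r over these arrays favours. Their differences between genotypes were small, with log2 differences from -0.42 to -0.24 and none past the thresholds, so that they shared the shape of the STZ pattern and not its size. The r after subtraction of genotype means was 0.787 to 0.978. By that measure alone, none of the 8 was among the nearest 8.

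The 5 genes nearest to AT2G28200 were AT5G63680, AT5G17570, AT5G13810, AT2G31945 and AT4G29950, with r of 0.980 to 0.995. In each of them, as choice by r over these arrays favours, WT replicate 2 had the highest value of the 6 arrays. AT2G31945 had 6.91, 7.29 and 7.58 (log2) in 35S::OsHOX24 and 7.17, 8.84 and 7.75 in WT, a log2 difference of -0.66. The other 4 had log2 differences from -0.20 to -0.07, and none passed the thresholds. AT2G28200 itself ranked 2874th of the 6031 genes in likeness to STZ. With 6 arrays and 6031 genes, r is given as a description of these arrays only.

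**Figure D4:**
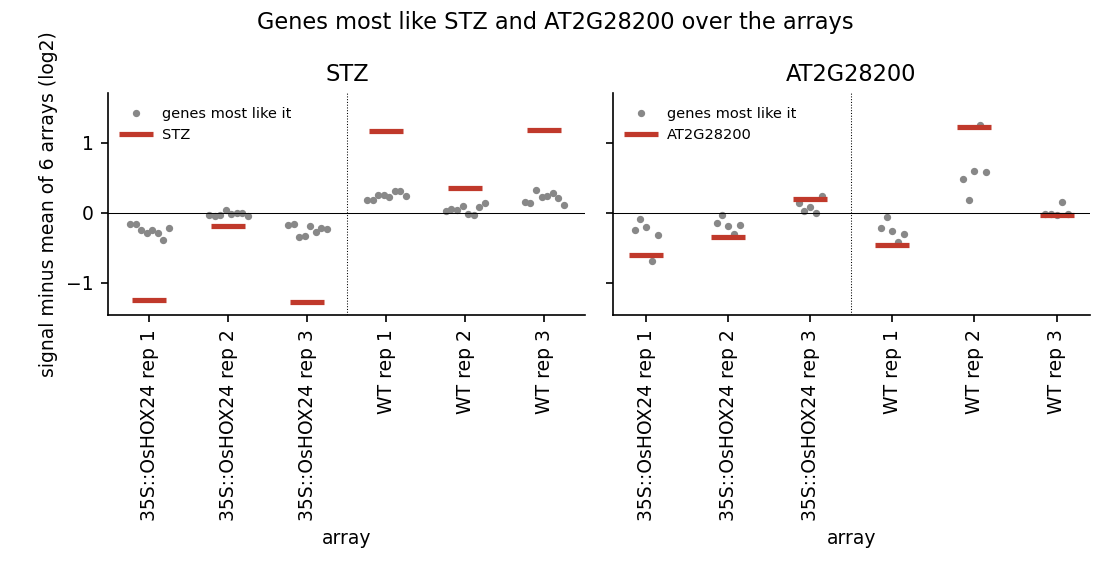
Signal minus its mean over the 6 arrays (log2, vertical axis) for STZ with the 8 genes most like it (left) and for AT2G28200 with the 5 genes most like it (right); red bars show the named gene, grey points the others, and arrays run along the horizontal axis. The genes most like STZ follow its pattern within a much narrower range, and those most like AT2G28200 share the high value of WT replicate 2.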

How the data were processed

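Total RNA of 10-day-old seedlings was hybridised to Affymetrix GeneChip arrays (3' IVT kit), 3 per genotype. The authors deposited log2 signals made with the MAS5 algorithm, the version of which is not given in the sources used here; the linear signals have a 2% trimmed mean close to 500.06 in every array, so each array had been scaled. Depth does not apply to arrays, and their number limits the precision. Detection calls were not used here.

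After leaving out 64 control probe sets, lmFit and eBayes of limma 3.58.1 (R 4.3.3) were run on 22746 probe sets without covariates, with Benjamini-Hochberg adjustment. Exact permutation tests used SciPy 1.17.1. Calls were taken at the study's thresholds. The fit was tested on simulated data. Probe sets were named through a platform table and RefSeq genes of TAIR10.1. Of 13513 probe sets with 1 gene, 13436 were found there; 503 had several genes and 8730 were not named. Of several probe sets of a gene, that with the highest mean was used.

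Named genes were the members, list genes past the thresholds or with the 4 lowest p of a list, and the 8 and 5 genes most like STZ and AT2G28200. CML38, PUB22 and PUB23 stand outside this rule, as their names were added once the values had been seen. The members and lists were chosen with earlier results of these data known. A planned search of proteins for QALGGH was not made, and no sequences are given. Alternatives of the fit were array weights, a trend of the variance with signal, the methods' t-test, a block for the replicate number and the GAPDH covariate. Those of the values were median centring, quantile normalization, log2(signal + 16), a filter at the 40th percentile of signal, and the omission of single arrays, of replicate 1 of both genotypes or of cross-hybridizing probe sets.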

Additional observations from a re-analysis of the deposited data

How the results depend on the processing

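STZ kept its direction under all 17 alternatives and its call under 16, with a log2 difference between 35S::OsHOX24 and WT of -2.15 to -1.61 without 1 array at a time. The exception was leaving out replicate 1 of both genotypes (-1.49), which leaves 4 arrays. The adjusted p of STZ with limma or the methods' t-test was 0.635 to 1 over all settings. AT2G28200 had -0.85 to -0.0028 without 1 array at a time, the ends being without WT replicate 1 and 2, and was not past the thresholds under any alternative. COR15A changed sign with log2(signal + 16) (-0.013) and without 1 array (-1.06 to 1.83), and COR47 without 35S::OsHOX24 replicate 2 or WT replicate 2 (0.16 and 0.15, range without 1 array -0.23 to 0.16). RBE, AT3G60580, WRKY6 and AT1G76640 each passed the thresholds under 1 or 2 alternatives, with the same direction. Over all probe sets, counts of lower and higher calls were 180 and 112 with the methods' t-test, 85 and 29 with log2(signal + 16), and 40 and 17 above the 40th percentile of signal, against 367 and 208; higher calls numbered 316 without WT replicate 1 and 324 without replicate 1 of both genotypes. Of the calls in both directions under a given setting, 36.2% were higher as reported and 46.6% after quantile normalization. This share ranged from 25.4% with log2(signal + 16) to 47.2% without WT replicate 1.

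Same-numbered arrays deviated from their genotype means with correlations of 0.11, -0.20 and -0.18, and 2 of 6 arrays correlated best with their own number, so the numbers were not taken to pair the arrays. With the replicate block, the log2 difference of STZ was -1.79 with an unadjusted p of 0.0230 in limma, and 419 probe sets were lower and 259 higher.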
